A study of Mus musculus with 4 samples.

Results

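The response of WT macrophages to lipid A was read from 2 of the 4 arrays of the series, the array of WT macrophages given lipid A and the array of WT macrophages given vehicle. Both came from +/+:Setdb1 fl/fl mice on a C57BL6/J background, which carry floxed alleles of the H3K9 methyltransferase gene Setdb1 and no Cre, so that the gene is not deleted in them. The other 2 arrays held LysM Cre/+:Setdb1 fl/fl (KO) macrophages under the same treatments, in which Cre is driven by the lysozyme gene in myeloid cells. The cells were peritoneal exudate cells elicited with thioglycollate that attached to the culture dish, and they were treated for 4 h with lipid A or vehicle before hybridisation to an Affymetrix mouse expression array. The series design gives the dose of lipid A as 10 ng/ml and the sample labels give 10 µg/ml. Each condition had 1 array and the number of mice behind an array is not stated, so no difference below has a replicate check, a test or a spread between mice.

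Lipid A is the membrane anchor of bacterial lipopolysaccharide and the part that is bound by MD-2 and Toll-like receptor 4 on macrophages. The receptor signals through the adaptor MyD88 to NF-κB and MAP kinases, and from endosomes through the adaptor TRIF to IRF3 and type I interferon, which in turn acts on the same cells through STAT and IRF factors. Macrophages stimulated in this way are known for secreting cytokines and chemokines and for changes in metabolism, solute transport and surface receptors.

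Leaving out controls, 34945 of 45037 probe sets carry 1 gene symbol, and they stand for 18193 genes. Each gene was read from its brightest probe set by mean log2 signal on all 4 arrays. A signal below the median of its array was treated as background and raised to that median, which was 65.1 for WT vehicle and 74.8 for WT lipid A, and a gene was detected when at least 1 of the 2 WT arrays held it at or above the median. In all, 12143 genes were detected. A gene was called higher or lower when the ratio of the 2 signals was over 2-fold, and a fold is written as "at least" when its smaller signal was background. Between probe sets of the same gene, the log2 difference of lipid A and vehicle had an SD of 0.39, or 1.31-fold, over 4371 genes. Only probe sets at or above the median on both WT arrays entered this SD, so it does not cover signals near background.

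The sequences upstream of Cxcl10, Ifit1 and Il6 are shown because these genes were among the largest rises and because the motifs searched are those of the factors named above. They are the 250 bases before the RefSeq transcript start (build GRCm38.p6), written 5′ to 3′ on the strand of the gene, with matches on either strand in capitals. The matches are to an interferon response element core, GAAANNGAA, or to a κB element, GGNNTTTCC. The Cxcl10 window is chr5:92348890-92349139 on the minus strand, the Ifit1 window is chr19:34640639-34640888 on the plus strand and the Il6 window is chr5:30012864-30013113 on the plus strand.
Cxcl10: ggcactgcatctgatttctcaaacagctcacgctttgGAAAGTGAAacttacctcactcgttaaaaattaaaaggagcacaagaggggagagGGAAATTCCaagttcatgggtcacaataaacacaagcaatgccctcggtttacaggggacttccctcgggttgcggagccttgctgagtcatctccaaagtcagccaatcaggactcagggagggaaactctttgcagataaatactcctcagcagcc
Ifit1: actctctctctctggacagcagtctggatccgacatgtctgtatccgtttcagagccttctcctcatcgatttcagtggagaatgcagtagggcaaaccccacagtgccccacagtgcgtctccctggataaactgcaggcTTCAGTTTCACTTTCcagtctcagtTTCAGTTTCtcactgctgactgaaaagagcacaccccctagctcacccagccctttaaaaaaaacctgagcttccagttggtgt
Il6: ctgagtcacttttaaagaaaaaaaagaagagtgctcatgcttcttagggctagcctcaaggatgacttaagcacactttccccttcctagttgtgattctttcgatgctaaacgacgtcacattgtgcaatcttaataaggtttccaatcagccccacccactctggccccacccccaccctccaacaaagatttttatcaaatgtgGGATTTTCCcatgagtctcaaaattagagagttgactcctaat
The Cxcl10 window held 1 match to the interferon element and 1 to the κB element. The Ifit1 window held 3 matches to the interferon element, of which 2 overlap each other, and the Il6 window held 1 match to the κB element. A match is a run of letters and not a measured binding site.

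With lipid A 692 genes were over 2-fold higher, 5.7% of those detected, and 458 were over 2-fold lower, 3.77%. The rises reached larger folds than the falls. Among the genes called higher, 280 exceeded 3-fold, 70 exceeded 8-fold and 14 exceeded 32-fold, whereas among the genes called lower 71 exceeded 3-fold, 18 exceeded 4-fold and 1 exceeded 8-fold. The median fold was 2.67 for the genes called higher, with a median signal of 231 on the vehicle array and 919 on the lipid A array. It was 2.32 for the genes called lower, with a median signal of 437 on the vehicle array and 173 on the lipid A array. The fold was a lower bound for 175 of the genes called higher and for 78 of those called lower. A gene could be called higher only if its lipid A signal exceeded 130.2 and lower only if its vehicle signal exceeded 149.6. Of the 8614 genes whose vehicle signal exceeded 149.6, 5.32% were called lower. The split between rises and falls depended on how the arrays were scaled, since 60.2% of the calls were rises as deposited and 36.7% were rises when each array was divided by its median.

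**Figure D1:**
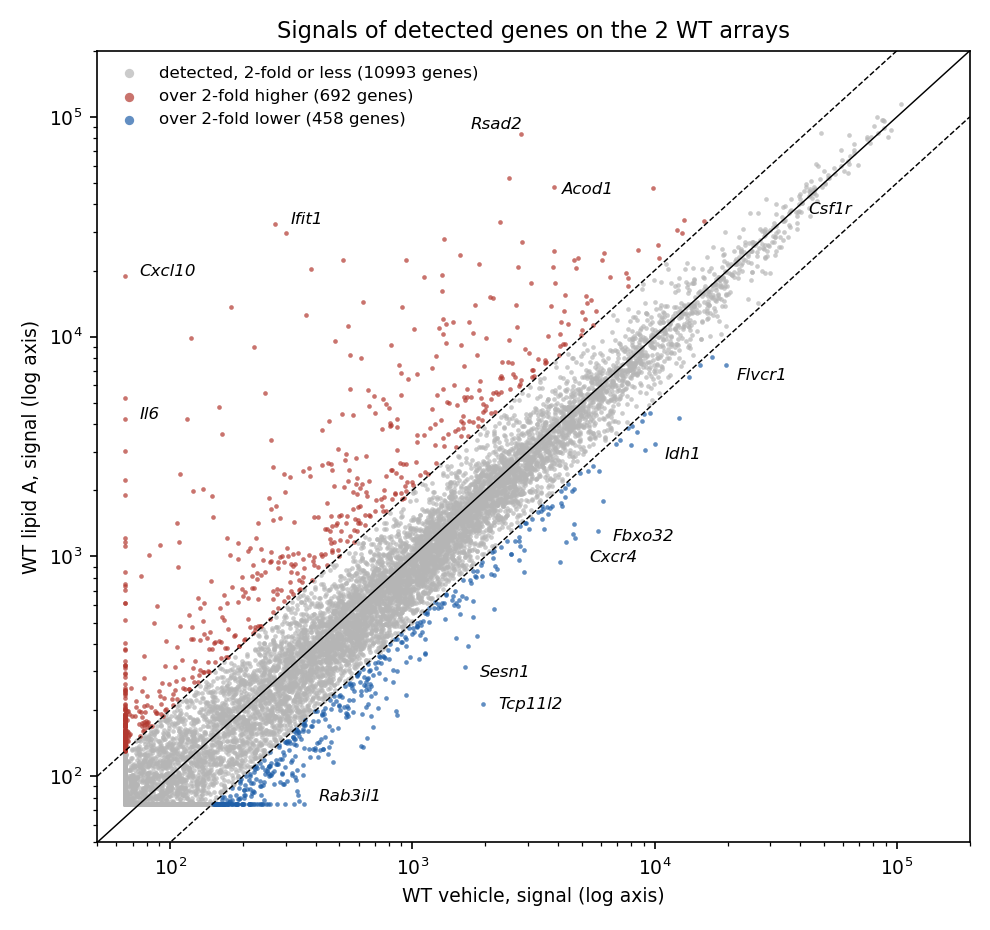
Signal of each detected gene on the WT vehicle array (x axis, log scale) and the WT lipid A array (y axis, log scale), with signals below an array's median drawn at the median, equal signal as a solid line and 2-fold as dashed lines. The 692 genes over 2-fold higher spread far above the upper dashed line, while the 458 genes over 2-fold lower stay close under the lower one.

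Genes just past the thresholds were as follows. Lnpk, at 922 in vehicle and 1846 in lipid A, was the nearest gene inside the 2-fold limit for rises, and Tcea2, at 72.5 and 144.9, was the nearest outside it. Zxdb, at 361 and 180.3, was the nearest inside the limit for falls, and C87436, at 274.8 and 137.5, was the nearest outside it.

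Other probe sets gave a further reading of the same RNA. For the genes called higher, 453 other detected probe sets existed and 92.9% of them lay above 0 on the log2 scale, with 55.2% over 2-fold. For the genes called lower there were 345, of which 76.5% lay below 0 and 26.4% were over 2-fold lower. Of these other probe sets, 2 of genes called higher and 4 of genes called lower were over 2-fold in the opposite direction.

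The label of macrophages was checked against 10 macrophage markers, all of which were detected and none of which was called. Adgre1, which encodes the surface antigen F4/80, was at 10187 in vehicle and 9216 in lipid A, and Csf1r, the receptor of the macrophage growth factor M-CSF, was at 39294 and 40196. Markers of other cells were detected in part. T and NK cell markers were detected for 3 of 10 measured genes. Of these Il7r, the receptor chain of interleukin-7, was bright, at 31416 and 28297, whereas Cd2 and Cd8a were background in vehicle and at 75.6 and 120.2 in lipid A, and the genes of the CD3 complex were background on both arrays. B cell markers were detected for 4 of 9, with a median vehicle signal of 1046 over those detected. The median of that array was 65.1. Neutrophil markers were detected for 5 of 10, mesothelial and fibroblast markers for 6 of 12 and endothelial markers for 3 of 6. Their median vehicle signals were 180, 280 and 210 in that order. No member of these lists was called. The eosinophil marker Siglecf, 1 of 11 eosinophil and mast cell markers to be detected, fell from 237 to 52.9, at least 3.17-fold, and no other marker of the 10 lists was called. In a mixed preparation fewer cells of a type and less RNA per cell cannot be told apart.

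The largest fall was that of Tcp11l2, from 1959 in vehicle to 212 in lipid A, 9.23-fold. Next came Sesn1, which encodes a sestrin that restrains the growth kinase mTORC1, from 1647 to 313, 5.26-fold, with its other 2 detected probe sets at log2 differences of -2.56 and -1.73. Fbxo32, the muscle atrophy F-box protein of a ubiquitin ligase, fell from 5836 to 1302, 4.48-fold, and its 2 other probe sets gave -2.21 and -1.97. Thus the falls of Sesn1 and Fbxo32 were repeated by every other probe set that was detected. Lpin1, the phosphatidate phosphatase lipin 1, which makes diacylglycerol, fell from 1845 to 434, 4.25-fold, and its other probe set gave -2.10. Pdcd4, an inhibitor of translation initiation, fell from 687 to 168, 4.09-fold, on its only probe set.

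Several of the 20 largest falls were in surface proteins and signalling adaptors. Thbd, the thrombin receptor thrombomodulin, fell from 860.5 to 189.9, 4.53-fold. Cd28, best known as a costimulatory receptor of T cells, fell from 612 to 137, 4.46-fold, and its other probe set gave -3.04. Of the T and NK cell markers given above, the CD3 genes were background on both arrays and Il7r was bright on both. Dok2, an adaptor that dampens tyrosine kinase signalling, fell from 652 to 149.6, 4.36-fold. Sh2d3c, another adaptor, fell from 324 to 61.7, at least 4.34-fold. Arrdc3, an arrestin domain protein involved in receptor trafficking, fell from 334 to 86.1, 3.88-fold.

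Regulators of small GTPases and transcription made up further members of this set. Rab3il1, an exchange factor for Rab GTPases, fell from 358 to 28.5, at least 4.79-fold, although its other detected probe sets ranged from -1.63 to 0.13. Rapgef6, an exchange factor for Rap GTPases, fell from 4051 to 947, 4.28-fold. Its reading turned with the choice of probe set, since the log2 difference was -2.10 for the brightest probe set and 0.68 for the median of its probe sets. Nfic, a transcription factor of the nuclear factor I family, fell from 1698 to 391, 4.34-fold, and its 4 other probe sets were background. Bach2, a repressor of the bZIP class, fell from 468 to 116, 4.04-fold, with other probe sets between -1.34 and 0.38. The remaining members were Fam117a, Etfbkmt, Sbk1, Zfp950, Tmem154 and Vash2, whose folds ranged from at least 3.98 for Vash2 to 4.60 for Fam117a. The other detected probe set gave -0.44 for Sbk1 and 0.16 for Zfp950.

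**Figure D2:**
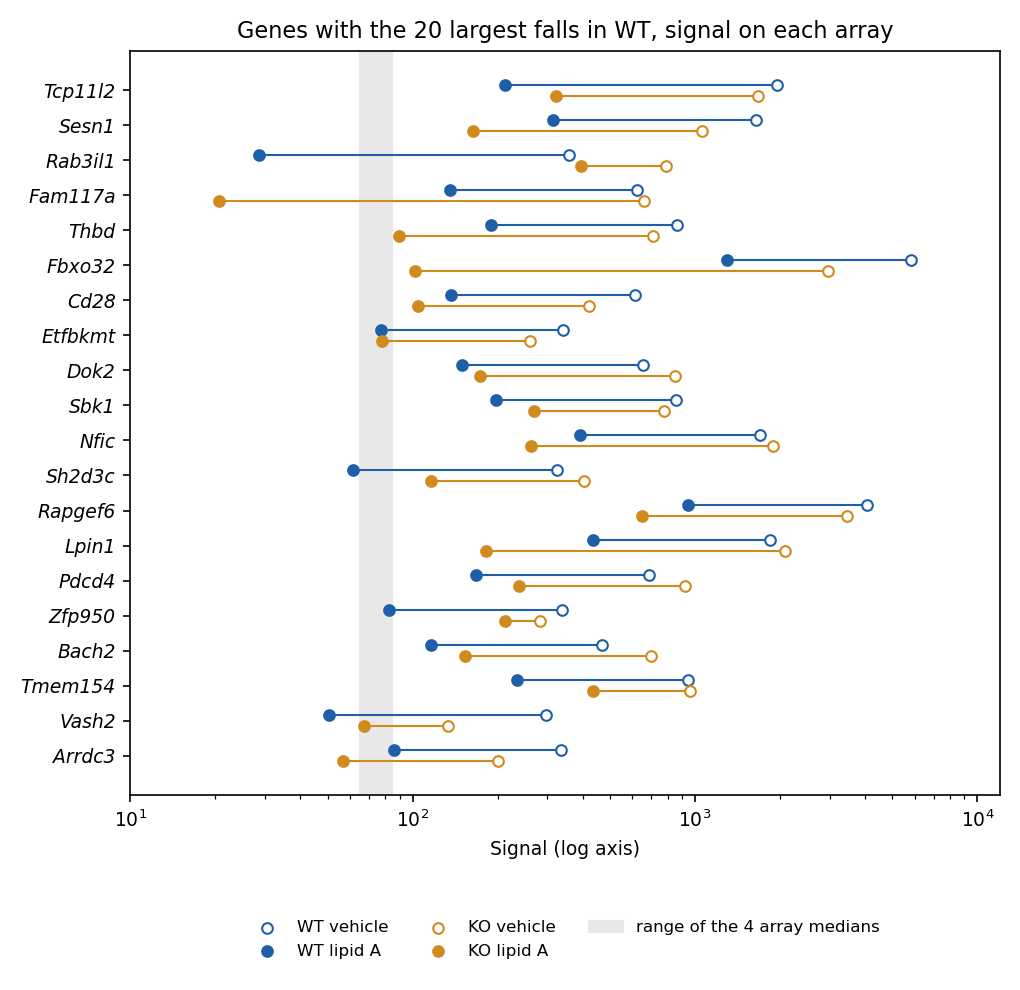
Signal (x axis, log scale) of the genes with the 20 largest falls in WT on each of the 4 arrays, with open circles for vehicle and filled circles for lipid A, blue for WT and orange for KO, and the range of the array medians in grey. The lipid A signal lies below the vehicle signal in both genotypes for all 20 genes, and Zfp950 shows the smallest step in KO, from 282 to 213.

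Transcription factor genes were followed in 10 lists. Of 232 members measured, 201 were detected, of which 30 (14.9%) were called higher and 16 (7.96%) lower, with a median log2 difference of 0.01, beside 5.7%, 3.77% and -0.04 over all detected genes. The falls were spread over several classes. Pparg, the nuclear receptor that senses fatty acids, fell from 1569.5 to 545, 2.88-fold, and was the only call among 22 detected nuclear receptors. Its coactivator gene Ppargc1b fell from 648 to 277, 2.34-fold. Cebpa, a C/EBP factor of myeloid differentiation, fell from 2744 to 1175, 2.33-fold. Its relative Cebpb, known for its role at inflammatory genes, was at 21776 in vehicle and 22464 in lipid A.

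Forkhead factors and the partners of Myc supplied further falls. Foxo3, a forkhead factor that is held out of the nucleus by Akt, fell from 2175 to 577, 3.77-fold, and its other detected probe set gave -1.01. Foxo4 was close to background and fell from 160.0 to 63.5, at least 2.14-fold, while its other detected probe set, also dim, gave 0.03. Among 27 detected genes of the Myc, Hif and E2f networks, 4 fell (14.8%) and 2 rose (7.41%). The shares over all detected genes were 3.77% and 5.7%. Of the Max-binding antagonists of Myc that were called, 3 fell and Mxd1 rose. The falls were Mnt, from 2192 to 906 (2.42-fold), Mxi1, from 3441 to 1477 (2.33-fold), and Mxd4, from 421 to 147.8 (2.85-fold). Mxd1 rose from 136.7 to 298, 2.18-fold, and Myc itself rose from 222 to 718, 3.24-fold. The other detected probe sets of Mxd4 gave -0.30 and -0.14. Rbl2, a pocket protein of the retinoblastoma family, fell from 801 to 340.5, 2.35-fold, and its other probe set gave -0.47.

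The remaining falls of transcription factors were in immediate early and circadian genes and in factors of differentiation. Jun, a subunit of AP-1, fell from 8862.5 to 4123, 2.15-fold, and its other probe set gave -1.22. Its partner Junb moved the other way, from 503 to 1190.2, 2.37-fold. Bhlhe40, a repressor that is also part of the clock, fell from 9584 to 4519, 2.12-fold, and the clock gene Per1 fell from 205.5 to 100.7, 2.04-fold. Tcf3, an E protein, fell from 412 to 143.6, 2.87-fold, and Id3, an inhibitor of E proteins, fell from 254 to 108.5, 2.34-fold. Klf16 fell from 458 to 223, 2.05-fold.

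The rises gathered in NF-κB and in the interferon response. Of 14 detected genes of NF-κB subunits, IκB proteins and their kinases, 10 rose and 0 fell, with a median log2 difference of 1.37. Nfkbie, which encodes an inhibitory IκB protein, rose from 1338 to 12055, 9.01-fold, and Nfkbia, which encodes IκBα, from 9880.1 to 47523, 4.81-fold. Of 12 detected IRF and STAT genes, 6 rose and 0 fell, with a median of 1.04. Irf1 rose from 1879 to 21439, 11.4-fold, and Irf7 from 535 to 2931, 5.48-fold. Irf8, a factor of macrophage lineage, was at 2684 and 1879. Called higher were thus 71.4% and 50% of these lists, beside 5.7% of all detected genes.

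Other factors that rose were Batf2, a bZIP factor induced by interferon, from 28.1 to 749, at least 11.5-fold, and Ets2, from 1202 to 7198, 5.99-fold. Maff, a small Maf protein, rose from 285 to 1501, 5.26-fold. Among 20 detected Egr, Nr4a and Klf genes, 5 rose (25%) and 1 fell (5%), beside 5.7% and 3.77% over all detected genes. Egr1 rose from 132 to 584, 4.41-fold. Klf4 rose from 1788 to 4084, 2.28-fold, with its other probe set at 0.39, and Klf2 from 231 to 641, 2.77-fold. In KO the same pair was at log2 differences of -0.87 and -0.50. Zinc finger genes named Zfp and a number, a family picked by symbol after other results were known, had 3 members called higher and 23 called lower of 271 detected, which is 1.11% and 8.49%, with a median of -0.23. Of these, Zfp704 fell from 1279 to 582 (2.20-fold), whereas Zfp36, the mRNA-binding protein tristetraprolin and not a transcription factor, rose from 847 to 1943 (2.29-fold).

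**Figure D3:**
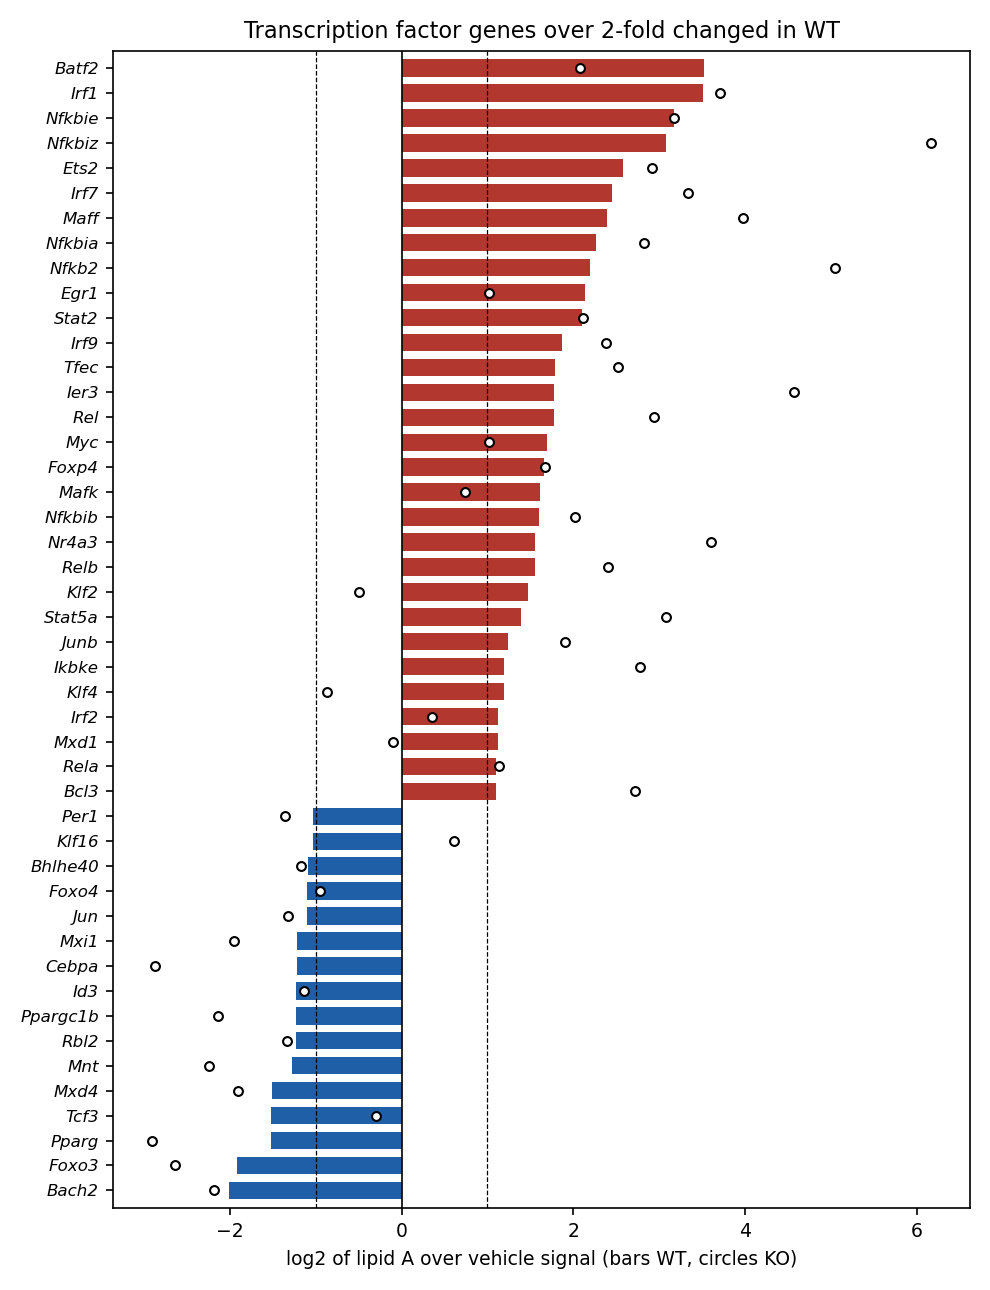
log2 of lipid A over vehicle signal (x axis) for the transcription factor genes of the lists that were over 2-fold higher (30) or lower (16) in WT, with bars for WT and open circles for KO. The falls in WT reach -2.01 in Bach2, and 15 of their 16 circles lie below 0, the exception being Klf16.

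Metabolic genes were called about as often as genes in general. Of 548 members of 14 lists measured, 496 were detected, 28 (5.65%) were called higher and 16 (3.23%) lower, with a median of -0.15, beside 5.7%, 3.77% and -0.04 over all detected genes. In the citric acid cycle the only call among 33 detected genes was Idh1, the cytosolic NADP-dependent isocitrate dehydrogenase, which also supplies NADPH. It fell from 10029 to 3255, 3.08-fold, and its other probe set gave -2.06. Mdh1, the cytosolic malate dehydrogenase, was at 18782 in vehicle and 10254 in lipid A, 1.83-fold lower, with other probe sets between -0.69 and 0.54. Mitochondrial Mdh2 was at 12533 and 16299, and its other probe set gave -0.27. Among 75 detected genes of the respiratory chain 0 were called in either direction.

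Fatty acid oxidation showed many small differences, mostly of one sign. None of its 40 detected genes passed 2-fold, yet 34 of them had a lower signal with lipid A, and the median was -0.39. Over the 9 alternatives the median of this list lay between -0.59 and -0.26, and the smallest size came with the median of probe sets. Acadm, the medium-chain acyl-CoA dehydrogenase, was at 4591 in vehicle and 2709.8 in lipid A. Crot, the peroxisomal carnitine octanoyltransferase, was at 1198 and 641, and Cpt1a, the entry step of mitochondrial oxidation, was at 1043 and 1057. Over all detected genes 53.7% had a lower signal with lipid A.

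Lipid metabolism held calls in both directions. Of 56 detected genes of phospholipid, sphingolipid and eicosanoid metabolism, 7 rose (12.5%) and 3 fell (5.36%), with a median of -0.10. Over all detected genes the shares were 5.7% and 3.77%, with a median of -0.04. Besides the prostaglandin genes given below, Lpcat2, a lysophospholipid acyltransferase, rose from 506 to 1539, 3.04-fold, although its other probe set gave 0.01. Ugcg, which makes glucosylceramide, rose from 891 to 2650, 2.97-fold. The falls were in Smpd2, Pcyt1a and Pemt, at 2.02-fold to 2.20-fold. In synthesis and storage there were more falls than rises. Of 38 detected genes of fatty acid and triglyceride synthesis and storage, 5 fell (13.2%) and 1 rose (2.63%), with a median of -0.28. Besides Lpin1, these were Fasn, the fatty acid synthase, from 933 to 431 (2.16-fold), and Plin3, a lipid droplet coat protein, from 4105 to 1746.5 (2.35-fold). Acsl3, an acyl-CoA synthetase of lipid droplets, fell from 1008 to 472 (2.14-fold), although its other probe sets ranged from -0.94 to 0.32. Scd2, a stearoyl-CoA desaturase, fell from 7207 to 3379.7 (2.13-fold). The rise was that of Fabp3, a fatty acid binding protein, from 1640.3 to 7388, 4.50-fold, with its other probe set at 0.59.

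Sterol genes were called in a few cases. Of 22 detected genes of cholesterol efflux, storage and LXR targets, 1 rose (4.55%) and 2 fell (9.09%), 1 of the falls being Scd2. The shares over all detected genes were 5.7% and 3.77%. Abcg1, a transporter that exports cholesterol, fell from 5904 to 2461, 2.40-fold, and its other probe set gave -1.36. Ch25h, which makes the sterol 25-hydroxycholesterol, rose from 66.4 to 198, 2.98-fold. Among 19 detected genes of cholesterol synthesis and uptake 0 were called, and 17 had a lower signal with lipid A. Hmgcs1, which encodes the synthase of the mevalonate pathway, was at 9919 and 6066. Apoe was at 36664 and 37518.

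Glycolysis had 1 call among 27 detected genes, the hexose transporter gene Slc2a6, which rose from 1490 to 6050.4, 4.06-fold. Hk3, a hexokinase, was at 19150.5 and 18414, Aldoa at 28508 and 28987 and the glucose transporter gene Slc2a1 at 5057 and 5010. Glycolytic genes thus showed no call among their enzymes at 4 h. Acod1, which makes itaconate from a citric acid cycle intermediate, rose from 3839 to 48029.5, 12.5-fold, and Arg2, the mitochondrial arginase, rose from 463 to 1530.3, 3.31-fold. Gch1, the entry enzyme of tetrahydrobiopterin synthesis, rose from 5209 to 15242, 2.93-fold.

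Amino acid and nucleotide enzymes were called in both directions, while the prostaglandin enzymes given here rose. Glul, the glutamine synthetase, fell from 3633 to 1560, 2.33-fold, and its other probe set gave -1.21. Phgdh, the first enzyme of serine synthesis, rose from 4074 to 9064 (2.22-fold), and Mthfd2, a mitochondrial folate enzyme, from 2520.5 to 5777 (2.29-fold). Of 48 detected purine, pyrimidine and NAD genes, 7 rose (14.6%) and 2 fell (4.17%), beside 5.7% and 3.77% over all detected genes. Cmpk2, an interferon-induced nucleotide kinase, rose from 383 to 20294, 52.9-fold, and Nampt, which recycles nicotinamide to NAD, from 7771 to 16978, 2.18-fold. Umps, the last enzyme of pyrimidine synthesis, fell from 617 to 235, 2.62-fold, but its other detected probe sets gave 0.12 and 0.52, and the log2 difference turned to 0.12 when the probe set was chosen on the WT arrays alone. Ptgs2, the inducible cyclooxygenase, rose from 177.6 to 13641, 76.8-fold, together with the prostaglandin E synthase gene Ptges, from 198.5 to 714, 3.60-fold.

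**Figure D4:**
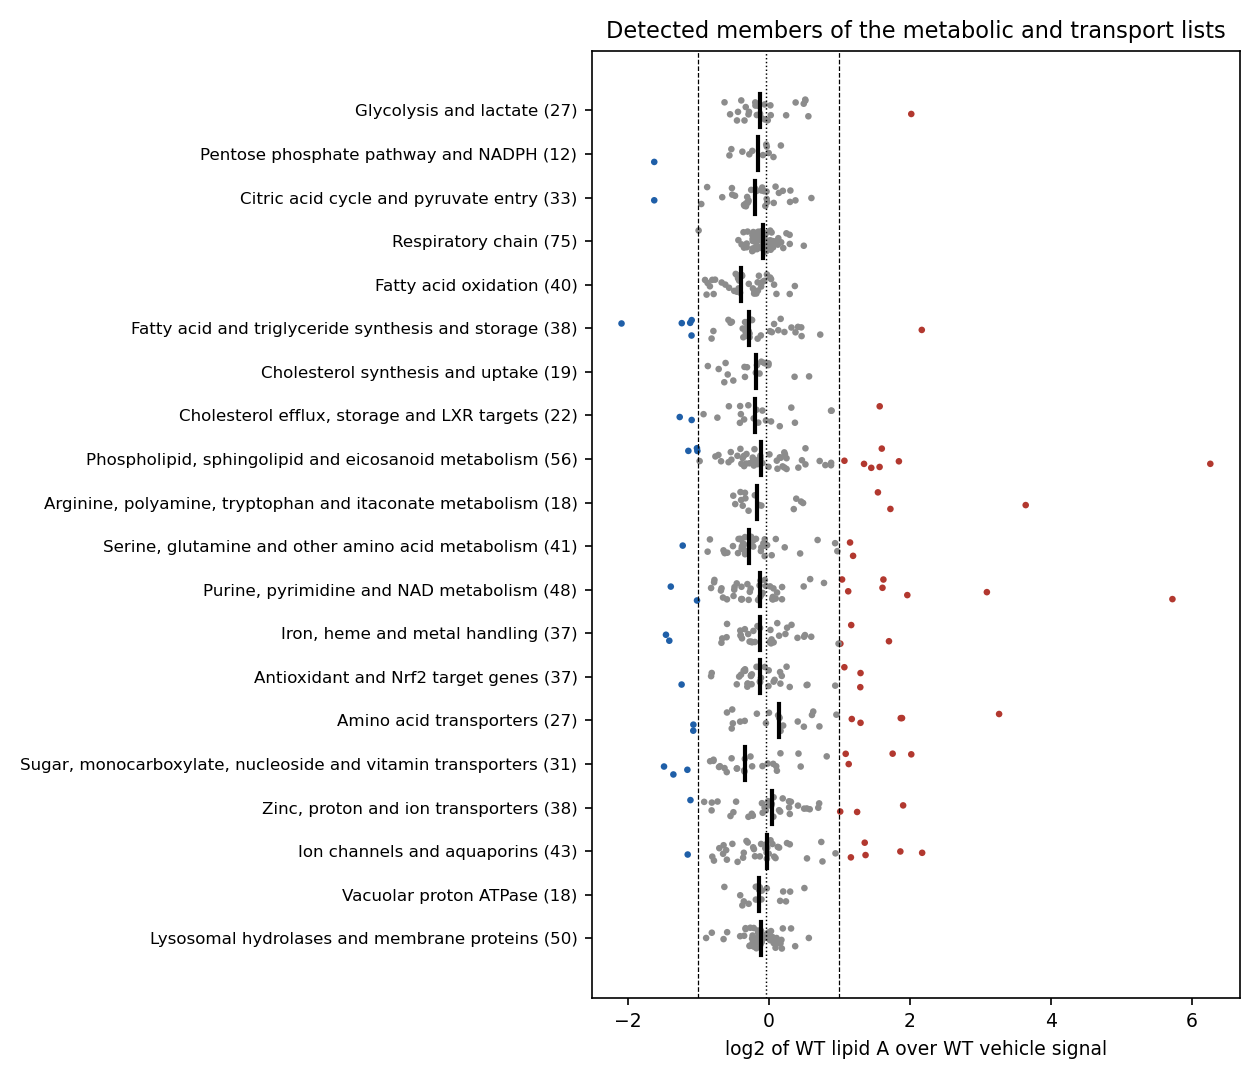
log2 of WT lipid A over WT vehicle signal (x axis) for each detected member (point) of the metabolic, transport and lysosomal lists, with the number detected in brackets, the list median as a black bar, 2-fold as dashed lines and the median over all detected genes as a dotted line. The bar of fatty acid oxidation, at -0.39, lies farthest to the left, with 0 of its 40 points beyond either dashed line.

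Transport genes were called in both directions. Of 195 measured members of the transport lists, 157 were detected, 17 (10.8%) were called higher and 7 (4.46%) lower, with a median of -0.04, beside 5.7%, 3.77% and -0.04 over all detected genes. The share of falls was thus near that of genes in general. Of 27 detected amino acid transporters, 5 rose (18.5%) and 2 fell (7.41%). The cationic amino acid transporter genes Slc7a2 and Slc7a1 rose from 266 to 2565 (9.63-fold) and from 2807 to 6353 (2.26-fold). Slc7a5, the light chain of the large neutral amino acid transporter, rose from 406 to 1506, 3.71-fold, and its heavy chain gene Slc3a2 was at 8959 and 17425. Slc7a11, which imports cystine, rose from 2658 to 6554, 2.47-fold, with its other probe set at 0.36.

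The falls among transporters were few and under 3-fold. Slc43a2, a carrier of neutral amino acids, fell from 1916 to 912, 2.10-fold, with other probe sets at -1.06 and -0.51, and Slc36a1, a proton-coupled carrier of small amino acids on the lysosome, fell from 1149.6 to 548, 2.10-fold. Slc46a3, a lysosomal carrier, fell from 774 to 277, 2.80-fold. Slc5a3, the sodium-coupled carrier of myo-inositol, fell from 668 to 262, 2.55-fold, with other probe sets at -0.73 and -0.11, and Slc19a2, a thiamine carrier, fell from 632 to 284, 2.22-fold. Slc12a9 fell from 354 to 164.0, 2.16-fold, though the median of its probe sets gave 0.30. Across all 232 detected genes named Slc or Slco and a number, 18 rose (7.76%) and 10 fell (4.31%). The shares over all detected genes were 5.7% and 3.77%. Slc9a3r2, 1 of those that fell, is an adaptor and not a carrier.

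Of 37 detected genes of iron, heme and metal handling, 3 rose (8.11%) and 2 fell (5.41%), shares not far from those of all detected genes. Flvcr1, a heme exporter, fell from 19808 to 7454, 2.66-fold, and its other probe set gave -1.09. Cpox, an enzyme of heme synthesis, fell from 834 to 304, 2.75-fold, but its other detected probe set gave -0.05. Slc25a37, the mitochondrial iron importer mitoferrin, rose from 1182 to 3856.5, 3.26-fold. The other rises were Slc31a2, from 3142 to 7071 (2.25-fold), and Hamp, which encodes hepcidin, from 9.61 to 131.7 (at least 2.02-fold). Slc39a14, a zinc and iron importer of the list of ion transporters, rose from 218 to 818, 3.75-fold, and its other probe sets gave 0.67 and 0.90. The iron uptake receptor gene Tfrc was at 17795 and 14744. None of 18 detected subunits of the vacuolar proton ATPase and none of 50 detected lysosomal hydrolases and membrane proteins was called, and Ctsb, a lysosomal protease, was at 78328 and 81407.

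Receptors for chemoattractants, lipids and purines showed both rises and falls. Of 39 detected, 11 rose (28.2%) and 4 fell (10.3%), beside 5.7% and 3.77% over all detected genes. The median was 0.25 and lay between -0.18 and 0.34 over the 9 alternatives. Cxcr4, the receptor of CXCL12, fell from 4692 to 1213, 3.87-fold. P2ry6, a receptor of uridine diphosphate, fell from 453 to 168.6 (2.69-fold), Lpar6, a receptor of lysophosphatidic acid, from 940.4 to 422 (2.23-fold), and the orphan receptor gene Gpr146 from 676 to 231 (2.92-fold). The other detected probe sets of Gpr146 gave -0.23 and -0.0018. Hcar2, the receptor of nicotinic acid and hydroxybutyrate, rose from 61.2 to 1213, at least 18.6-fold, Gpr84, a receptor of medium-chain fatty acids, from 85.7 to 499, 5.83-fold, and Fpr2, a receptor of formyl peptides, from 1344 to 5799, 4.31-fold. Ccr1, a chemokine receptor, was at 6959 and 3629, 1.92-fold lower and so not called, and its other probe set gave -1.88.

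Of 59 detected cytokine and growth factor receptors, 10 rose (16.9%) and 2 fell (3.39%), beside 5.7% and 3.77% over all detected genes. Cd40, a costimulatory receptor, rose from 164.4 to 3613, 22.0-fold, and Il15ra, which presents interleukin-15, rose from 88.1 to 593, 6.73-fold. Nrp2, a coreceptor of semaphorins and VEGF, rose from 4759 to 20608, 4.33-fold. Pdgfrb rose from 14.4 to 378, at least 5.80-fold, and Axl from 55.5 to 311, at least 4.78-fold, with the other probe set of Axl at 0.24. The falls were in Il6ra and Insr. Il6ra, the receptor of interleukin-6, fell from 613 to 244, 2.51-fold, with its other probe set at -0.78, while Il6 itself rose. Insr, the insulin receptor, fell from 654 to 323, 2.03-fold, with other probe sets between -0.44 and 0.44. Of 28 detected Toll-like receptors and adaptors, 6 rose (21.4%) and 2 fell (7.14%). Ticam1, which encodes the adaptor TRIF, fell from 289.8 to 119.8 (2.42-fold), and Irak1, a kinase downstream of MyD88, fell from 3601 to 1681 (2.14-fold), with other probe sets between -0.66 and -0.16. In the same list Tlr2 rose from 3809 to 20659, 5.42-fold, and Myd88 from 1884 to 5750.3, 3.05-fold. G protein and phosphoinositide signalling was a list with more falls than rises, 6 (9.68%) and 3 (4.84%) of 62 detected. Rgs18 and Rgs2, which shut off G protein signals, fell from 719.7 to 204 (3.53-fold) and from 1815 to 818 (2.22-fold). Inpp5d, the inositol phosphatase SHIP1, fell from 1128 to 365, 3.09-fold, although its other probe set gave 0.33. Dgkz, a diacylglycerol kinase, fell from 6957 to 3253, 2.14-fold.

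Of 45 detected regulators of the Bcl2 family and cell death, 10 rose (22.2%) and 3 fell (6.67%). The shares over all detected genes were 5.7% and 3.77%. Cdkn1a, the cyclin-dependent kinase inhibitor p21, rose from 1719 to 11623, 6.76-fold, and Casp4, the caspase that senses lipopolysaccharide in the cytosol, rose from 900 to 5442, 6.05-fold. Cflar, the caspase-8 inhibitor FLIP, rose from 1783 to 10346, 5.80-fold, with other probe sets between 0.26 and 3.26, and Tnfsf10, the death ligand TRAIL, rose from 37.5 to 514, at least 7.89-fold. The falls were Bmf, a proapoptotic BH3 protein, from 284 to 93.9 (3.02-fold), Gadd45a, from 1019 to 453 (2.25-fold), and Gadd45g, from 1500.0 to 695 (2.16-fold). Of 33 detected genes of the H3K9 methylation list, 2 rose and 2 fell, 6.06% each way. The DNA methyltransferase genes Dnmt1 and Dnmt3a fell from 2146 to 980.1 (2.19-fold) and from 13896 to 6573 (2.11-fold). Their other probe sets gave -1.64 and -1.56 for Dnmt1 and between -1.24 and -0.49 for Dnmt3a. Kdm6b, an H3K27 demethylase, rose from 138.5 to 614, 4.43-fold, with other probe sets at 0.15 and 1.54, and Setdb2, an H3K9 methyltransferase induced by interferon, from 444 to 1753, 3.94-fold. Setdb1 was at 589 in vehicle and 521 in lipid A. Of 31 detected S phase and mitosis genes, 4 rose (12.9%) and 2 fell (6.45%), with a median of -0.23 and 19 members below 0. Mki67, which encodes the proliferation antigen Ki-67, rose from 75.7 to 815, 10.8-fold. The other rises, in Bub1b, Ccna2 and Nusap1, were dim, with lipid A signals of 268 or less. The falls were Cdt1, from 3435 to 1700 (2.02-fold), and Cdc45, from 157.7 to 36.0 (at least 2.11-fold). Pcna, a bright member, was at 12806 and 14294.

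The largest rises were in interferon-stimulated genes and cytokines. Of 35 detected interferon-stimulated genes, 34 rose (97.1%) and 0 fell, with a median of 3.01. The remaining member, Bst2, was at 3489 and 6506. Cxcl10, a chemokine that draws activated T cells, rose from 15.9 to 18979.7, at least 291-fold, and Ifit1, a sensor of viral RNA, from 272 to 32711, 120-fold. Of 33 detected cytokine genes 17 rose (51.5%), and of 23 detected chemokine genes 10 rose (43.5%), with 0 falls in either list. Over all detected genes 5.7% rose and 3.77% fell. Il6 rose from 2.18 to 4203, at least 64.5-fold, and Tnf from 516 to 22302, 43.2-fold. Marcksl1, an actin-binding protein gene outside these lists, rose from 365 to 12614, 34.6-fold. Of 24 detected feedback inhibitors, 13 rose (54.2%), among them Socs3, from 545 to 2484 (4.56-fold). In the same list 1 fell (4.17%), Socs6, from 2107 to 829 (2.54-fold).

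The motifs were counted in all promoter windows of 300 bases, from 250 before to 50 after the start. RefSeq windows existed for 14452 of the genes, 18109 windows in all. The interferon element was in 7.37% of all windows, in 14.8% of those of genes called higher and in 5.89% of those of genes called lower, and among the interferon-stimulated genes of the list it was in 15 of 32. The κB element was in 5.97%, 9.69% and 3.73%. A forkhead element, GTAAACA, was in 2.98% of all windows and 2.95% of those of genes called lower. The median share of G and C was 60.7% in windows of genes called lower, 57.3% in those of genes called higher and 58.3% in all. These are descriptions of letters on both strands and were not tested.

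The KO arrays gave a reading of the same genes in cells of another genotype, in a pair that shared no array with the WT pair and was not a replicate of it. In KO, 695 genes (5.65% of 12306 detected) were called higher and 1203 (9.78%) lower. Of the 692 genes called higher in WT, 396 (57.2%) were called higher in KO, 7 lower and 243 neither, and 46 were not detected. Of the 458 genes called lower in WT, 256 (55.9%) were called lower in KO, 3 higher and 190 neither, and 9 were not detected. By direction alone, 78.9% of the genes higher in WT were higher in KO and 89.7% of those lower in WT were lower in KO, where 62.7% of all genes detected in both pairs were lower in KO by any amount. The share for falls stands against that background, and it ranged from 57.4% to 95.6% over other settings.

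All 20 of the largest falls in WT had a lower signal with lipid A in KO too, and 18 of them were over 2-fold lower there. Fbxo32 went from 2957 in KO vehicle to 102 in KO lipid A, 29.0-fold, and Lpin1 from 2084 to 182.6, 11.4-fold. Outside those 20, Cxcr4 went from 5117 to 652, 7.84-fold. Pparg went from 2085 to 279, 7.48-fold, and Cebpa from 3260.1 to 446, 7.31-fold. Idh1 went from 10084 to 2223, 4.54-fold. Tcp11l2, the largest fall in WT, was at 1666 and 321 in KO, 5.19-fold. Other falls named above were not called in KO. Tcf3 was at 421 and 343 there, Umps at 558 and 445, Fasn at 981 and 613 and Gadd45a at 828 and 1078. With 1 array for each condition no difference between the genotypes was tested.

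Starting levels differed as well. Acod1 had a vehicle signal of 3839 in WT and of 51.4, which is background, in KO. Its lipid A signal was 48029.5 and 49219.7, so that its log2 difference was 3.65 in WT and at least 9.19 in KO. Cxcl2, a chemokine that attracts neutrophils, was at 2501 and 420 in the vehicle arrays of WT and KO and at 52796 and 87996 with lipid A. Clec4e, a lectin receptor, was at 48726 and 3573 with vehicle and at 84688 and 78521 with lipid A, so it was not called in WT. In Il1b the difference was in the lipid A arrays, at 1020 in WT and 43071 in KO, with 81.6 and 18.1 in vehicle. Setdb1, the gene targeted in KO, had KO signals of 346 with vehicle and 386 with lipid A, but the position of its probe set with respect to the deletion is unknown here, so these values do not check the genotype. B cell markers were detected for 4 of 9 measured genes on the WT pair and for 9 on the KO pair. T and NK cell markers were detected for 3 of 10 on the WT pair and for 9 on the KO pair. Macrophage markers were detected for 10 on each pair, and endothelial markers for 3 on the WT pair and 2 on the KO pair. Genotype, the mix of cells and array cannot be told apart.

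**Figure D5:**
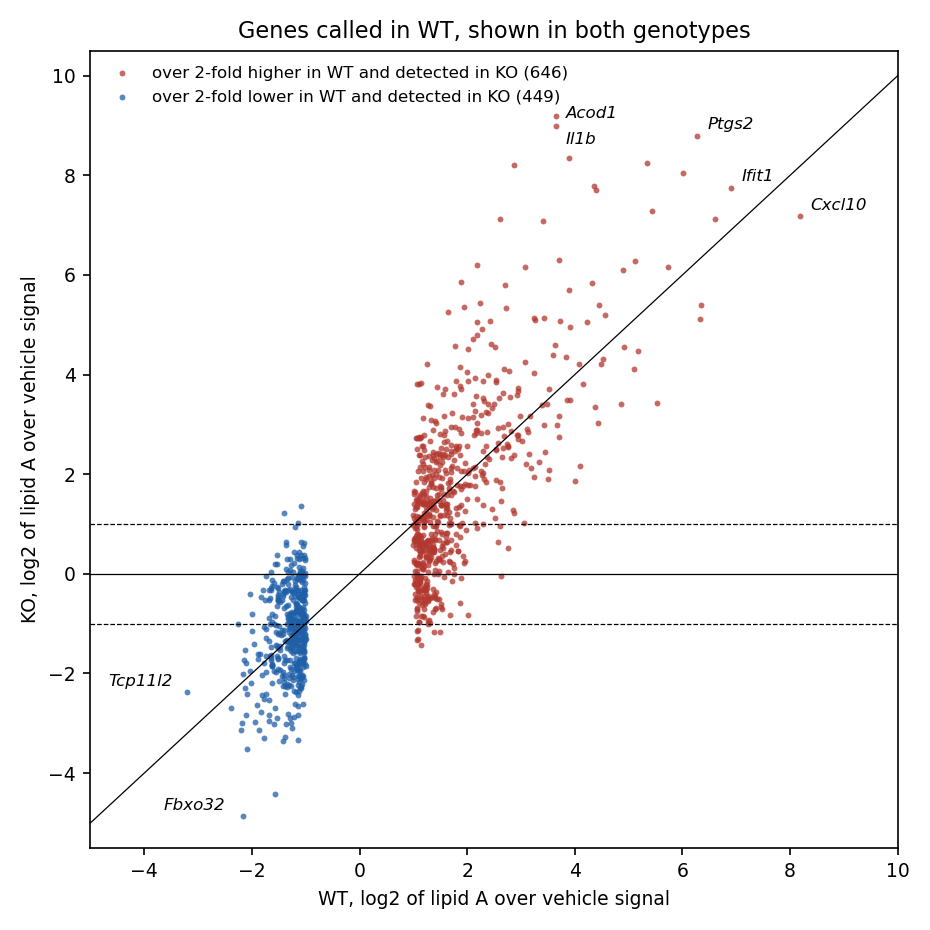
log2 of lipid A over vehicle signal in WT (x axis) and KO (y axis) for the genes over 2-fold higher (red) or lower (blue) in WT and detected in KO, with equal difference as a diagonal line and 2-fold in KO as dashed lines. Most blue points lie below 0 on the y axis. Acod1 lies far above the diagonal, at 3.65 in WT and 9.19 in KO, where the value is a lower bound.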

How the data were processed

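The members, gene lists and families were chosen with earlier results of these data known. The authors deposited a single table for the series, whose values are intensity on a linear scale, 1 for each probe set and array. Its mean was 500.004 on each array after trimming 2% at each end. The program that made these values is not given in the sources read. Detection calls of the study were not used. Symbols came from the platform annotation and were updated through RefSeq gene numbers, which 34754 of the probe sets with 1 symbol matched. Signals below their array's median were raised to it, ratios over 2-fold were called, and log2 differences are lipid A minus vehicle. No p-value was computed, since each condition has 1 array. Depth has no meaning for these arrays, and their number limits the precision.

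The 45 lists held 1744 genes, of which 1613 were measured, beside 10 marker lists. Genes named in the text were taken from a set of 351 picked by rule, not all of which are given. The set held the 20 largest rises, the 20 largest falls and the genes the study names in its array part. It also held up to 5 called members in each direction and up to 3 bright uncalled members of each list. The 10 largest rises and falls of solute carriers were in it too. Genes at the thresholds, further list members given as examples, zinc finger genes and markers were named after their values were seen. The code that makes the calls was tested on simulated signals with known changes. Python 3.11.15, numpy 2.4.6, pandas 2.3.3 and matplotlib 3.10.9 were used. Alternatives were other floors and filters, scalings, probe set choices and fold thresholds.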

Additional observations from a re-analysis of the deposited data

Results flagged for a closer look

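For 10 genes the arrays of the 2 genotypes were called in opposite directions, and none of these differences was tested. Their signals were low, the highest being 329, and only for Trmt13 and Usp53 were all 4 signals above the median of their array. In 7 of them lipid A went with a rise in WT and a fall in KO. The KO minus WT log2 difference was -2.23 for Amotl1, -2.41 for Apex2, -2.56 for Clip4 and -2.67 for Rab38. It was -2.20 for Rpusd3, -2.59 for Tmem114 and -2.38 for Trmt13. In the other 3 genes WT was lower and KO higher, with 2.16 for 2610316D01Rik, 2.62 for Rin3 and 2.44 for Usp53. Rin3, an exchange factor for Rab5, went from 198 to 55.3 in WT and from 141 to 328 in KO.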

How the results depend on the processing

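Each condition has 1 array, so none could be left out. No paired analysis was possible because each group holds 1 array. The count of genes higher, 692, went to 1429 with signals as measured, 3274 with no filter, 280 over 3-fold and 1604 over 1.5-fold. The count lower, 458, went to 1084 with signals as measured, 2699 with no filter, 298 with the floor at 2 times the median, 835 with arrays divided by their median, 71 over 3-fold and 1654 over 1.5-fold. The WT array medians differ by 0.20 on the log2 scale, and with arrays divided by them 485 genes were higher. With the WT arrays centred on the genes that reached both medians, 815 were higher and 347 lower. The share of genes higher in WT with the same direction in KO, 78.9%, went to 49.7% with signals as measured, 82.2% with both signals at or above the median, 55.6% with no filter, 93.8% with the floor at 2 times the median, 89.3% with arrays divided by their median and 87.0% with quantile normalization. That of genes lower, 89.7%, went to 57.4% with signals as measured, 60.8% with no filter, 95.6% with the floor at 2 times the median, 82.9% with arrays divided by their median, 86.5% with centring, 84.98% with quantile normalization and 83.4% with the median over probe sets. The log2 difference changed sign with the median over probe sets for Ccna2 (-0.050), Rapgef6 (0.68), Samhd1 (-0.054) and Slc12a9 (0.30), and with the brightest probe set over the WT arrays for Umps (0.12). The causes of these changes were not tested. Of the medians of 45 lists, 28 kept 1 sign over all alternatives and 17 took both signs. Among the latter the medians reached -0.32 for iron, heme and metal handling and 0.38 for the Bcl2 family and death regulators. Signals near background limit how small a change at low signal could be called.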
